A study of Mus musculus with 29 samples.

Results

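The interferon response genes examined here are 33 mouse genes that cells switch on when they sense interferon. They were taken by gene symbol, from a list chosen with earlier results of these data known. All 33 were found among the 23918 usable symbols of an RNA sequencing table. Their levels were followed through nephron progenitor cells (NPCs), the Six2-positive cells of the embryonic kidney that give rise to nephrons. Levels as RPKM, read counts scaled to transcript length and to the total of mapped reads, were available for 29 libraries.

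All 29 libraries came from kidney of C57BL/6 and 129 hybrid mice with the Six2-GCE allele, which places a GFP and Cre cassette under the control of Six2, so that the allele is shared by every group. The 8 cultured NPC lines were 1 line for each starting age (P1 and E16.5, called late here, and E13.5 and E11.5, called early), sampled at passage 80 (P80) and again at passage 20 (P20) and grown as aggregates in NPSR medium. P1 denotes postnatal day 1, and P20 and P80 denote passages. Six2-negative cells of E12.5 kidneys had 2 libraries. Primary NPCs taken at each of 5 ages had 2 libraries per age (E11.5, E12.5 and E13.5, then E16.5 and finally P1). In 9 further cultures, labelled E13.5, a single component had been withdrawn: BMP7 for 4 or 8 days, CHIR for 4 or 8 days, LIF for 8 days, heparin for 4 or 8 days, or the kinase inhibitor Y27632 for 4 or 8 days. Each withdrawal is 1 library, no culture in full medium is labelled among them, and they were made from total RNA where the other 20 were made from poly(A) RNA. Nothing in the labels ties the replicates to different animals or cultures. The p-values therefore reflect how far these particular libraries scattered, and that scatter could be technical.

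Type I and type III interferons bind receptors on the cell surface and act through the JAK kinases. A complex that holds STAT2 and IRF9 then assembles on a promoter element called the interferon-stimulated response element (ISRE). Interferon gamma, a type II interferon, acts on another element, the gamma-activated site (GAS). The genes that follow block viruses at many steps, and several of them, such as Irf7 and Stat2, encode factors of the pathway itself, so that the response can amplify its own output. Some members are also present without added interferon, and in kidney the response is known best from infection and immune disease rather than from development.

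Each of the 33 symbols matched 1 protein-coding gene of the mm9 mouse genome in the GENCODE M1 annotation, and several members are neighbours. The IFIT genes, which bind foreign RNA, lie together on chromosome 19, with Ifit2 at chr19:34625184-34650909, Ifit3 at chr19:34658021-34663221 and Ifit1 at chr19:34715361-34724499, all on the plus strand. Ifitm3, which blocks viral fusion with cell membranes, lies at chr7:148195485-148196669 on the minus strand, and Irf7 at chr7:148448605-148452380 on the same strand. Parp9 at chr16:35938556-35972691 on the plus strand and Dtx3l at chr16:35926597-35939237 on the minus strand overlap at their ends. Whether reads were counted by strand is not given in the sources used here, so reads at that overlap cannot be told apart. Ifit3 and Oas1a have near-identical copies beside them, and their values are uncertain to that extent.

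Promoter sequences were read for the members from the RefSeq table of the GRCm38.p6 build, and 24 of the 33 were listed there. The core of the ISRE was searched on both strands over the 250 bases before each gene start as GAAA, any 2 bases, GAAA, which reads TTTC, any 2 bases, TTTC on the opposite strand. It was found in 7 of the 24 members (29.2%) and in 3.46% of 27025 genes in the same table. The longer form, the same core followed by CT, was found in 4 members (16.7%) and in 0.255% of the genes. The GAS motif, TTCNNNGAA, was found in 5 members (20.8%) and in 8.13% of the genes. The 7 windows with a core are shown because the ISRE is the element named above for the complex with STAT2 and IRF9. Each is written 5′ to 3′ on the strand of its gene, with the core in capitals and up to 15 bases on either side.
Bst2, chr8:71537572-71537617, minus strand: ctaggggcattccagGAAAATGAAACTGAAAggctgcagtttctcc
Ifit1, chr19:34640770-34640828, plus strand: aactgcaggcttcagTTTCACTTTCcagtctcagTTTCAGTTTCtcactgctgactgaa
Ifit3, chr19:34583358-34583431, plus strand: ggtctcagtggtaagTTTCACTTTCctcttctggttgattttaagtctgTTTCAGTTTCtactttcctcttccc
Isg15, chr4:156200860-156200911, minus strand: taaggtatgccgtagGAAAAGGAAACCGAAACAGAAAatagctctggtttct
Oas1a, chr5:120907526-120907560, minus strand: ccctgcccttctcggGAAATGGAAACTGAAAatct
Rsad2, chr12:26456548-26456587, minus strand: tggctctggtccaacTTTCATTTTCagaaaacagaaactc
Stat2, chr10:128270261-128270300, plus strand: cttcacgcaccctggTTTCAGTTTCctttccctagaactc

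The core overlaps itself in Bst2, Isg15 and Oas1a and stands at separate places in Ifit1 and Ifit3. A match describes these letters and is not a measured binding site.

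The libraries held an estimated 6.6 to 32.9 M reads. At that depth 1 RPKM of Isg15, a short transcript, rests on 5 to 24.9 reads, so values under 1 RPKM are imprecise in the shallow libraries. Progenitor markers summed to 222 and 172 RPKM in the Six2-negative libraries, against 1139 to 1882 RPKM in the 10 primary NPC libraries, although the labels call both NPC. A further split runs through the table: in 18 libraries the last lines are shifted, and these hold the P80 lines and all withdrawals, whereas the P20 lines are among the 11 that are not. The first E16.5 and first P1 primary libraries stood apart from their partners. Macrophage markers summed to 1938 and 162 RPKM in P1 libraries #1 and #2 and to 880 and 60.4 RPKM in E16.5 libraries #1 and #2, against 44.3 to 223 RPKM in the other 6 primary libraries. Markers of differentiated tubule summed to 7793 and 586 RPKM at P1 and to 1021 and 192 RPKM at E16.5, against 5.6 to 19.6 RPKM in those 6. Endothelial markers summed to 127.5 and 55.6 RPKM at P1 and to 563 and 38.0 RPKM at E16.5, against 21.3 to 153 RPKM in those 6. For stroma markers the sums were 669 and 597 RPKM at P1 and 994 and 438 RPKM at E16.5, against 313 to 394 RPKM. In such bulk samples a larger share of cells of a type and more RNA per cell cannot be told apart.

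**Figure D1:**
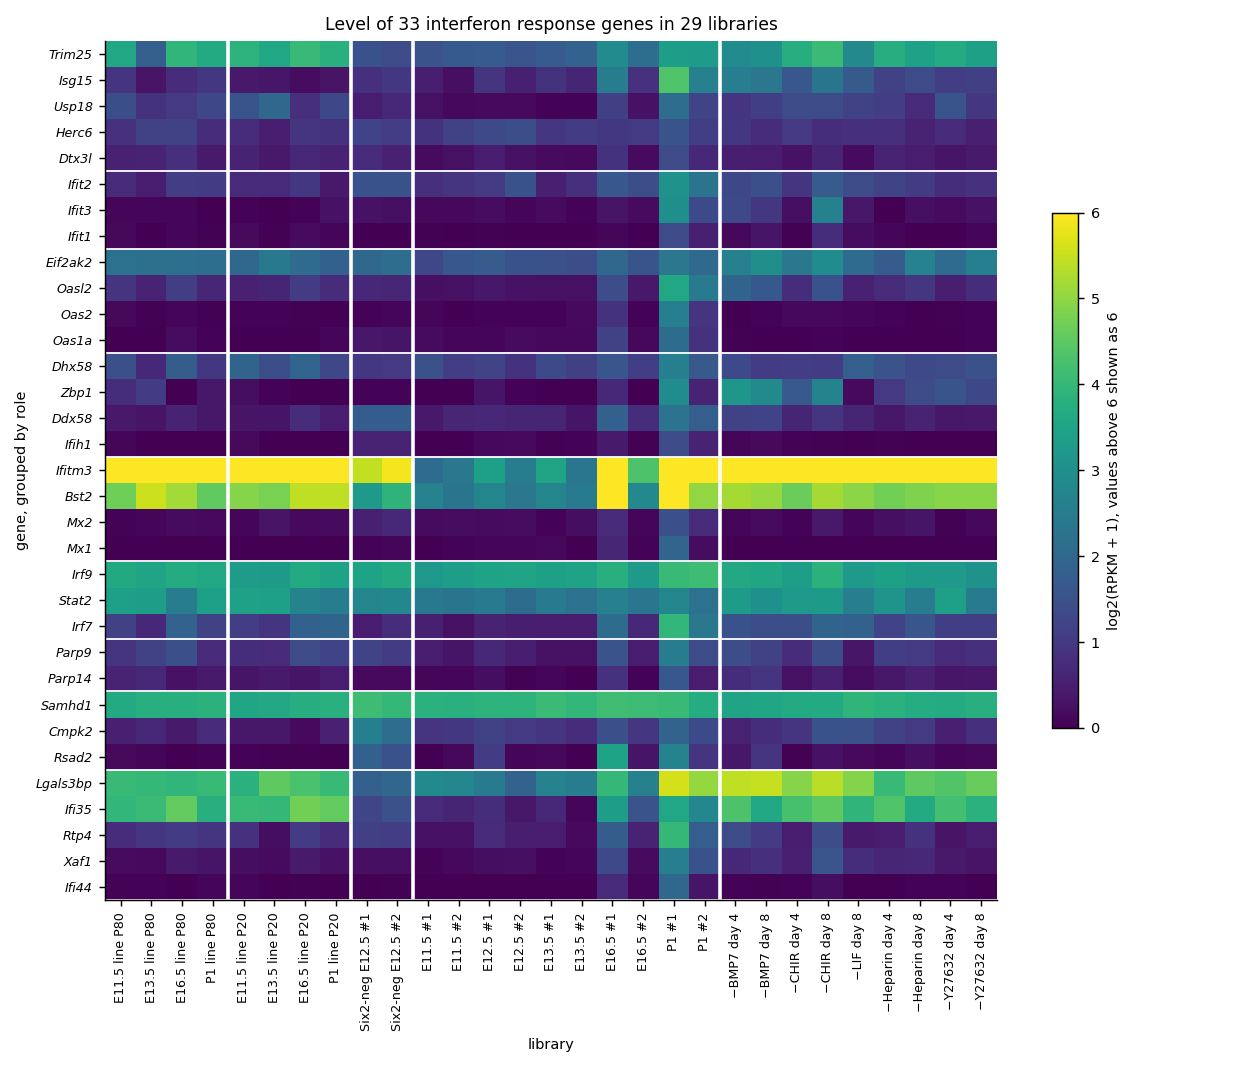
Level of each of the 33 interferon response genes (rows, grouped by role) in each of the 29 libraries (columns) as log2(RPKM + 1), with values above 6 shown as 6. The brightest of the 29 columns is P1 library #1, the highest of the 10 primary libraries for 30 of the 33 genes, and Ifitm3 is the brightest row.

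Interferon response genes were higher in newborn than in early embryonic NPCs. Each of the 24 members that could be tested had a positive log2 fold change at P1 against E11.5, and 18 were called higher and 0 lower by limma at an adjusted p under 0.05. Of all 13574 genes tested, 17.5% were called higher and 17.7% lower. The median log2 fold change was 1.72 over the 24 members and 0.04 over all genes. A gene entered the test with at least 1 RPKM in at least 2 libraries. Of the members, 7 (Isg15, Irf7, Oasl2, Oas1a, Ifit3, Usp18 and Xaf1) passed only through the P1 libraries or E16.5 library #1, where they were high. Their calls and positive values, and with them the median over the 24 members, were in part set by the filter. Among the other 17 tested members, 11 were called. The count of 18 fell to 7 without E11.5 library #1 and to 10 without P1 library #1. Without testing, both P1 libraries lay above both E11.5 libraries for 30 of the 33 members, the exceptions being Stat2, Herc6 and Samhd1. For the 24 that passed the filter this count is 21, and it takes in the 7 named above. Among all genes passing the filter 37.9% lay above in that way and 33.6% below.

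The membrane proteins changed most. Ifitm3 had 255 and 139 RPKM in the P1 libraries, against 3.28 and 4.27 RPKM at E11.5, and its values through the ages were 9.53 and 4.74 RPKM at E12.5, 10.3 and 4.10 RPKM at E13.5 and 160 and 19.2 RPKM at E16.5. The log2 fold change at P1 against E11.5 was 5.32 ± 0.84 (SE, adjusted p = 0.00337). It was 5.90 between the libraries whose table lines are not shifted and 4.73 between those that are. Bst2, also called tetherin, which holds budding viruses at the cell surface, had 93.2 and 31.8 RPKM at P1, against 5.32 and 4.01 RPKM at E11.5. Both P1 values stood well above both E11.5 values, and library #1 exceeded library #2 at P1 by 1.52 on the log2 scale. The log2 fold change was 3.30 ± 0.89 (SE, adjusted p = 0.0222).

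Isg15 encodes a ubiquitin-like tag that is attached to other proteins. It had 19.4 and 5.13 RPKM at P1, against 0.417 and 0.186 RPKM at E11.5, with the E11.5 values resting on an estimated 2.5 to 3.7 reads. The libraries did not overlap, and Isg15 rose by 3.11 ± 0.61 on the log2 scale (SE, adjusted p = 0.00723). Usp18, the protease that removes the tag, rose by 1.48 ± 0.34 (adjusted p = 0.0129), and the ubiquitin ligase Trim25 rose by 1.71 ± 0.23 (adjusted p = 0.00189), both on the log2 scale in the same limma fit. Trim25 had 9.35 and 8.81 RPKM at P1, against 1.92 and 2.23 RPKM at E11.5, so its P1 libraries lay close together. Herc6, the main ligase for Isg15 in mouse, did not pass, with a log2 fold change of 0.32 ± 0.20 (adjusted p = 0.233).

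Among the factors that carry the signal, Irf7 and Irf9 passed the test and Stat2 did not. Irf7, which amplifies interferon production, had 14.7 and 4.19 RPKM at P1, against 0.442 and 0.197 RPKM at E11.5, a log2 fold change of 2.78 ± 0.54 (SE, adjusted p = 0.00711). Irf9, the DNA-binding part of the STAT complex, had 15.4 and 16.6 RPKM at P1, against 8.21 and 9.30 RPKM at E11.5, a smaller rise of 0.80 ± 0.18 on the log2 scale (adjusted p = 0.0119). Stat2, its partner, had 5.70 and 3.74 RPKM at P1, against 4.34 and 4.03 RPKM at E11.5. These libraries overlapped, and the difference of Stat2 was 0.12 ± 0.21 on the log2 scale (adjusted p = 0.671).

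Among the RNA-binding antivirals, Oasl2, of the oligoadenylate synthetase family, had 11.0 and 4.53 RPKM at P1, against 0.183 and 0.210 RPKM at E11.5. The increase of Oasl2 came to 2.77 ± 0.39 on the log2 scale (SE, adjusted p = 0.00237). Oas1a, an active synthetase of that family, rose by 1.36 ± 0.42 on the log2 scale (adjusted p = 0.0349) and the RNA-activated kinase Eif2ak2 by 0.77 ± 0.22 (adjusted p = 0.0271). With 1 library left out, the call of Oas1a was lost in 8 of the 10 fits that tested it, and that of Eif2ak2 in 3 of 12. Ifit3 had 6.88 and 1.53 RPKM at P1, against 0.0855 and 0.0857 RPKM at E11.5, where it rested on an estimated 1.7 to 2.7 reads. The libraries were far apart, and Ifit3 rose by 2.04 ± 0.43 (adjusted p = 0.0092) and its neighbour Ifit2 by 1.83 ± 0.27 (adjusted p = 0.00274) on the log2 scale. Of the cytoplasmic RNA sensors, Ddx58, also called RIG-I, rose by 1.53 ± 0.32 (adjusted p = 0.00959), whereas its regulator Dhx58 had a log2 fold change of 0.84 ± 0.32 (adjusted p = 0.0706).

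Lgals3bp, a secreted glycoprotein, had 48.2 and 32.02 RPKM at P1, against 6.25 and 5.85 RPKM at E11.5, and rose by 2.52 ± 0.40 on the log2 scale (SE, adjusted p = 0.00353). Rtp4, a chaperone of membrane receptors, had 15.1 and 2.47 RPKM at P1, against 0.224 and 0.225 RPKM at E11.5, with a log2 fold change of 2.61 ± 0.63 (adjusted p = 0.0148). Ifi35 had 11.0 and 5.89 RPKM at P1, against 0.664 and 0.532 RPKM at E11.5, with a log2 fold change of 2.51 ± 0.53 (adjusted p = 0.00927). In each of these 3 genes the P1 libraries lay apart from the E11.5 libraries, and library #1 was the higher at P1. Xaf1, named for binding the apoptosis inhibitor XIAP, rose by 1.95 ± 0.41 (adjusted p = 0.00889), and Parp9, an ADP-ribosyltransferase family member, by 1.57 ± 0.41 (adjusted p = 0.0195), on the log2 scale.

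The members that act on nucleotides did not pass. Samhd1, which hydrolyses deoxynucleotides, had 15.8 and 12.2 RPKM at P1, against 13.2 and 12.9 RPKM at E11.5. It was steady through every age, between 12.2 and 16.8 RPKM in the 10 primary libraries. Rsad2, or viperin, which makes a chain-terminating nucleotide, had 5.47 and 0.855 RPKM at P1, against 0 and 0.1002 RPKM at E11.5. Its spread was the widest of these, with 10.1 and 0.268 RPKM at E16.5, and the log2 fold change of 1.72 ± 0.92 (SE) had an adjusted p of 0.166. Cmpk2, a mitochondrial nucleotide kinase beside Rsad2 on chromosome 12, had a log2 fold change of 0.68 ± 0.26 (adjusted p = 0.0737).

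Another 9 members were too low to test in primary cells: Oas2, Ifit1, Ifi44, Ifih1, Mx1, Mx2, Parp14, Dtx3l and Zbp1. All had their highest value of the 10 primary libraries in P1 library #1. Zbp1, a sensor of Z-form nucleic acid, had 6.59 and 0.508 RPKM at P1 and was listed at 0 in both E11.5 libraries. Oas2 had 4.98 and 0.861 RPKM at P1, against 0.0629 and 0.0140 RPKM at E11.5. The GTPase Mx1 had 2.89 and 0.147 RPKM at P1, against 0 and 0.0411 RPKM at E11.5. For each of these 3 genes P1 library #1 alone exceeded 1 RPKM.

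The replicate libraries of E16.5 and of P1 lay far apart for many members. Library #1 exceeded library #2 for 32 of the 33 members, by at least 1 on the log2 scale for 13, whereas 8.46% of all 13574 genes were higher by that much in library #1. At P1 the same held for 32 members, 15 of them by at least 1, against 8.39% of genes. Members at 1 RPKM or more numbered 33 and 22 in P1 libraries #1 and #2, 22 and 12 in E16.5 libraries #1 and #2, and 9 to 13 in the 6 libraries of E11.5 to E13.5. Without Ifitm3, the members summed to 339 and 154 RPKM at P1 and to 178 and 56.7 RPKM at E16.5, against 47.6 to 55.7 RPKM at the earlier ages. P1 library #2 therefore stood above the early libraries, and E16.5 library #2 was just above their range.

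For P1 against E16.5, 4 of the 24 tested members were called higher and 0 lower in limma, where 2.73% of all genes were called higher and 3.74% lower. The median log2 fold change was 0.90 over these members and -0.02 over all genes. Oasl2 had 11.0 and 4.53 RPKM at P1, against 1.67 and 0.327 RPKM at E16.5, with a log2 fold change of 2.11 ± 0.39 (SE, adjusted p = 0.0252). Lgals3bp had 48.2 and 32.02 RPKM at P1, against 15.1 and 5.12 RPKM at E16.5, with a log2 fold change of 2.02 ± 0.40 (adjusted p = 0.0289). Both P1 values lay above both E16.5 values in these genes. Oasl2 and Ifit3 are among the 7 members that passed the filter only through the P1 libraries or E16.5 library #1. Their calls, and the median over the 24 members, were thus in part set by the filter. Of the other 17 members 2 were called. The other called members were Ifit3 (1.91 ± 0.43, adjusted p = 0.038) and Ifit2 (1.16 ± 0.27, adjusted p = 0.0428). The count of 4 ran from 0 to 11 when 1 library was left out, and was 0 without P1 library #1, without E16.5 library #2, and without any 1 of the E11.5 or E13.5 libraries. It was 1 or 2 without a Six2-negative or E12.5 library, 8 without E16.5 library #1 and 11 without P1 library #2.

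For E16.5 against E11.5, 0 of 24 members were called by limma, 6 had an unadjusted p under 0.05, and 1.27% of all genes were called higher and 0.457% lower. The median log2 fold change was 0.63 over the members and 0.03 over all genes. That median takes in the 7 members that passed the filter only through the P1 libraries or E16.5 library #1, so it was in part set by the filter. Ifitm3 had 160 and 19.2 RPKM at E16.5, against 3.28 and 4.27 RPKM at E11.5. Neither E16.5 value overlapped the E11.5 values, yet the spread between the E16.5 libraries left a log2 fold change of 3.59 ± 0.84 (SE) at an adjusted p of 0.0754. Trim25 came next, at 0.91 ± 0.23 (adjusted p = 0.0876). Without E16.5 library #2 only library #1 remained at E16.5, and more members were called, but so were more of all genes.

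Macrophage and tubule markers, and at E16.5 endothelial and stroma markers, moved with the members in these libraries. The part of these markers in the differences was not tested. With both of the outlying libraries, E16.5 #1 and P1 #1, left out (a setting added after the data were seen), 10 of 17 tested members were called higher at P1 against E11.5, where 12.6% of genes were, and all 10 were among the 18. They were Irf9, Ifit2, Ifi35, Bst2, Ifitm3, Ddx58, Rtp4, Parp9, Lgals3bp and Trim25. Ifitm3 had a log2 fold change of 4.88 there, Lgals3bp 2.23 and Bst2 2.54. That setting leaves 1 library at P1, so these calls rest on it, with a spread taken from other groups. The library left, P1 #2, still had tubule markers at 586 RPKM, against 5.6 to 19.6 RPKM in the libraries of E11.5 to E13.5. Of 18 macrophage markers tested at P1 against E11.5, 1 was called higher, with a median log2 fold change of 2.59, and of 16 tubule markers 15 were, with a median of 5.34. Of 16 stroma markers 9 were called higher and 1 lower, and of 12 endothelial markers 0 were called.

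**Figure D2:**
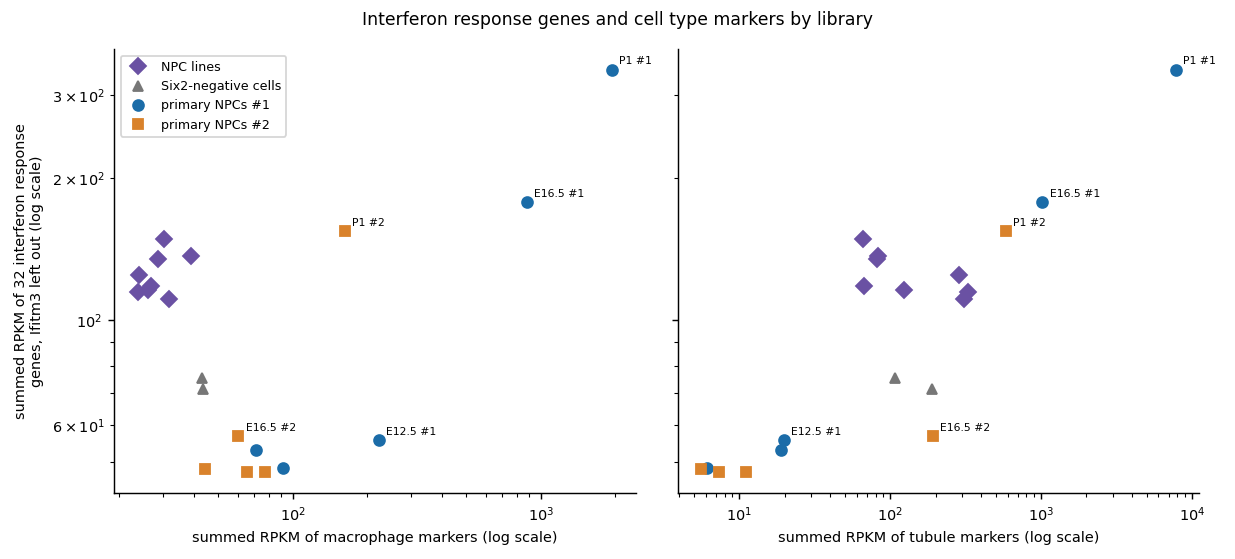
Summed RPKM of the 32 interferon response genes other than Ifitm3 (vertical, log scale) against summed RPKM of macrophage markers (left) and tubule markers (right), both on log scales, in the 20 poly(A) libraries. The NPC lines sit at 111 to 149 RPKM of interferon response genes with the lowest macrophage sums, 23.8 to 39.0 RPKM, and P1 library #1 and E16.5 library #1 are high on both axes of both panels.

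The rest of the pathway was counted from lists of known components. In P1 against E11.5, 4 of 6 tested interferon receptor chains were called higher and 0 lower. The type I receptor chain Ifnar2 had 35.0 and 29.8 RPKM at P1, against 12.1 and 13.7 RPKM at E11.5, and rose by 1.26 ± 0.24 on the log2 scale (SE, adjusted p = 0.00637). Its partner chain Ifnar1 had 14.0 and 15.8 RPKM at P1, against 14.3 and 13.7 RPKM at E11.5, with a log2 fold change of 0.08 ± 0.15 (adjusted p = 0.706). The 2 chains of the type I receptor thus differed in what the test called. Among the genes that relay the signal, Stat3 (1.09 ± 0.26, adjusted p = 0.015) and Jak2 (0.84 ± 0.20, adjusted p = 0.0151) were called higher, as was Jak1. All 4 tested targets typical of interferon gamma were called higher, among them the chemokine Cxcl10 (2.84 ± 0.56, adjusted p = 0.00731) and the GTPase Irgm1 (2.78 ± 0.29, adjusted p = 0.000775). Of 30 further interferon-stimulated genes, 14 were called higher and 0 lower, led by Ly6a, known as Sca-1 (5.94 ± 0.77, adjusted p = 0.00179) and Lgals9 (3.88 ± 0.83, adjusted p = 0.00994). Of 11 negative regulators, Socs3 was called higher and Rnaseh2c lower.

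The interferons themselves were almost unseen. Of 18 interferon ligand genes in the table, 9 were listed at 0 in all 29 libraries, and the highest value of any was 0.216 RPKM. Ifnb1 was listed at 0 in each of the 29, and 16 of the 18 ligands were listed at 0 in both P1 libraries. Levels this low do not show that no ligand was made, and ligand from cells outside the sample would not be seen.

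Six2-negative cells of E12.5 kidney, in which stroma markers summed to 1173 and 1510 RPKM against 394 and 378 RPKM in E12.5 NPCs, were set against those NPCs. Of 24 tested members 1 was called higher and 0 lower in limma, and 3 had an unadjusted p under 0.05, where 9.28% of all genes were called higher and 4.32% lower. The member called was Cmpk2, with 5.05 and 3.45 RPKM in Six2-negative cells, against 1.27 and 1.02 RPKM in E12.5 NPCs. The libraries did not overlap, and the log2 fold change was 1.28 ± 0.26 (SE, adjusted p = 0.0142). Ifitm3 had 42.7 and 58.9 RPKM in Six2-negative cells, against 9.53 and 4.74 RPKM in NPCs. It too did not overlap, but with a spread estimated over all the sorted libraries the log2 fold change of 2.72 ± 0.84 had an adjusted p of 0.0671. When E16.5 #1 and P1 #1 were left out, which lowers that estimate of the spread, 7 of 17 tested members were called higher, where 16.4% of genes were, against 9.28% with all libraries: Ifi35, Rsad2, Bst2, Ifitm3, Ddx58, Parp9 and Cmpk2. With 1 library left out the count was 0 without either Six2-negative library or E12.5 library #2, 3 without either E16.5 library and 2 without either P1 library. Elsewhere in the pathway, Jak2 (0.94 ± 0.20, adjusted p = 0.0172), the inhibitor Socs1 (1.00 ± 0.23, adjusted p = 0.021) and the interferon-inducible GTPase Iigp1 (2.21 ± 0.25, adjusted p = 0.00142) were called higher. The receptor chains Ifnar2 (0.45 ± 0.24, adjusted p = 0.27) and Ifnar1 (0.42 ± 0.15, adjusted p = 0.109) were not called. Stroma markers were called higher for 12 of 16 and progenitor markers lower for 14 of 15.

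In long-term culture Ifitm3 and Ifi35 stood above primary NPCs in every line, Trim25 and Stat2 were also called higher, and Cmpk2 was called lower. Most other members did not pass the test. At P80 against primary NPCs of the same 4 ages, 4 of 25 tested members were called higher and 1 lower by limma, where 15.3% of 13612 genes were called higher and 24% lower. At P20 against the same primary NPCs, 4 members were called higher and 2 lower, where 14.5% of genes were called higher and 21.6% lower. The median log2 fold change was -0.15 at P80 and -0.29 at P20 over these members, and -0.11 at both passages over all genes. The 5 calls at P80 became 3 without the P80 library of the E11.5 line or that of the E16.5 line. The shares of members called were near or below those over all genes. These 2 comparisons share their primary libraries, and their values are given side by side. In this fit lines and primary NPCs shared 1 age term, and the 2 passages of a line entered as separate libraries. An age difference seen in primary NPCs but not in lines adds to the spread. A member that was not called is therefore not shown to be unchanged.

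Ifitm3 had 366, 322, 390 and 315 RPKM at P80 in the lines of E11.5, of E13.5, of E16.5 and of P1 origin and 288, 262, 482 and 377 RPKM in the same lines at P20. In the 8 matched primary libraries it ranged from 3.28 to 255 RPKM with a median of 14.8 RPKM, so every line exceeded every primary library, though the lowest line only just exceeded P1 library #1. The log2 fold change was 3.80 ± 0.82 at P80 (SE, adjusted p = 0.00296) and 3.78 ± 0.82 at P20 (adjusted p = 0.00322). Ifi35, which is found in a cytoplasmic complex with the protein Nmi, had 14.7, 15.98, 22.6 and 12.7 RPKM at P80 and 15.4, 14.97, 25.5 and 22.6 RPKM at P20. Primary libraries lay between 0.0657 and 11.0 RPKM with a median of 1.28 RPKM, again below every line. Its log2 fold change was 2.43 ± 0.45 at P80 (adjusted p = 0.00113) and 2.66 ± 0.45 at P20 (adjusted p = 0.000602).

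Trim25 had 10.9, 2.54, 14.4 and 11.8 RPKM in the 4 lines at P80 and 13.6, 11.0, 15.6 and 13.1 RPKM at P20, against 1.92 to 9.35 RPKM (median 3.11) in primary NPCs. The E13.5 line at P80 stood alone at the primary level, and all other lines lay above the primary range. Trim25 was called at both passages, with log2 fold changes of 0.93 ± 0.30 at P80 (SE, adjusted p = 0.0253) and 1.51 ± 0.30 at P20 (adjusted p = 0.00172). Stat2 had 9.38, 9.10, 4.73 and 9.45 RPKM at P80 and 9.77, 9.41, 5.44 and 4.74 RPKM at P20, against 3.73 to 5.70 RPKM (median 4.22) in primary NPCs. In 5 line libraries Stat2 was near 9 RPKM, above every primary library, and in the other 3, the E16.5 line at both passages and the P1 line at P20, it lay within the primary range. The log2 fold change of Stat2 was 0.73 ± 0.19 at P80 (adjusted p = 0.0101) and 0.58 ± 0.19 at P20 (adjusted p = 0.034). With 1 library left out, the call of Stat2 at P20 was lost in 8 of 16 fits, and that at P80 in 0 of 16.

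Cmpk2 had 0.448, 0.607, 0.347 and 0.676 RPKM at P80 and 0.298, 0.316, 0.112 and 0.456 RPKM at P20, against 0.687 to 2.77 RPKM in primary NPCs. No line reached the lowest primary library, and Cmpk2 fell by 0.55 ± 0.17 at P80 (SE, adjusted p = 0.0217) and by 0.78 ± 0.17 at P20 (adjusted p = 0.00326) on the log2 scale. In this fit 7 members (Isg15, Oas1a, Ifit3, Rsad2, Xaf1, Ddx58 and Cmpk2) passed the filter only through the P1 libraries or E16.5 library #1, where they were high. The call of Cmpk2 as lower in lines, and the medians of lines against primary NPCs over the members, were thus in part set by the filter. Samhd1 lay between 10.8 and 13.4 RPKM in the lines and between 12.2 and 16.8 RPKM in primary NPCs. It was called lower at P20 alone, by a small log2 fold change of -0.29 ± 0.09 (adjusted p = 0.0224), with -0.21 ± 0.09 (adjusted p = 0.0738) at P80. Among members that were not called, Isg15 stayed between 0.151 and 0.968 RPKM in the lines, against 0.186 to 19.4 RPKM in primary NPCs, and Mx1 was listed at 0 in all 8.

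**Figure D3:**
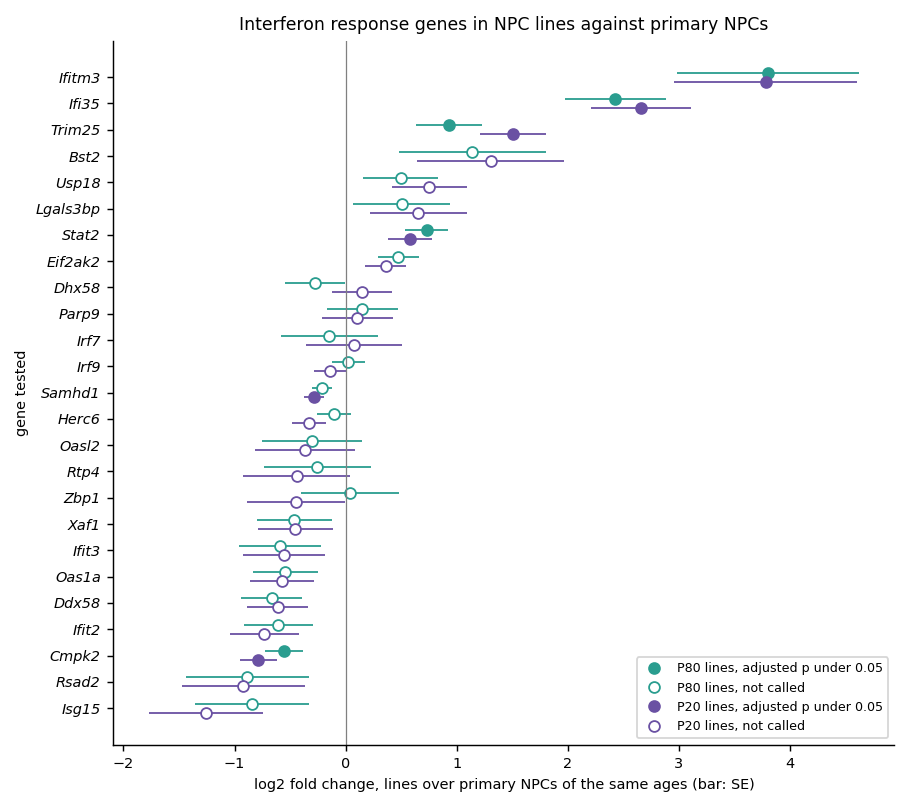
Log2 fold change of the 25 tested interferon response genes in NPC lines over primary NPCs of the same ages, at P80 (upper point of each pair) and P20 (lower point), with bars for the standard error and filled points for an adjusted p under 0.05. Ifitm3 and Ifi35 stand to the right at both passages, and Cmpk2 is filled on the left.

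Since the 2 outlying primary libraries weigh on the primary side, the lines were also set against the early ages alone. All 8 lines lay above all 4 libraries of E11.5 and E13.5 NPCs for 13 of the 33 members: Irf7, Oasl2, Ifi35, Stat2, Usp18, Bst2, Ifitm3, Xaf1, Parp14, Parp9, Dtx3l, Lgals3bp and Eif2ak2. They lay below for 1, Cmpk2. Of the 25 members that passed the filter, 11 lay above and 1 below, where 16.3% of all genes lay above and 24.7% below in that way. Against all 8 matched primary libraries the lines lay above for 2 members, Ifitm3 and Ifi35, and below for 1, where the figures over all genes were 6.42% and 10.2%. Bst2 shows the difference: its lines had 22.1 to 45.5 RPKM, above the 4.01 to 5.66 RPKM of the early ages and below the 66.2 and 93.2 RPKM of the outlying libraries, and it was not called (1.14 ± 0.66, adjusted p = 0.185 at P80). With those libraries left out, Bst2 was called at P80 (1.86, adjusted p = 0.00357) and at P20 (2.02, adjusted p = 0.00242), as were Usp18 and Eif2ak2 at both passages and Lgals3bp at P20. In that setting 17 members were tested, without Cmpk2, and 20.2% of genes were called higher at P80 and 18.3% at P20.

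Each passage falls in a different set of the table, P20 with the libraries whose lines are not shifted. Measured within a set, the mean log2 difference from the 4 matched primary libraries was 4.39 at P80 and 3.19 at P20 for Ifitm3, and 2.84 and 2.24 for Ifi35. It was 0.99 and 1.44 for Trim25, 0.86 and 0.45 for Stat2, and -0.40 and -0.93 for Cmpk2, so the direction held in each set for all 5. With the set as a term in the fit, 3 of 25 members were called higher and 0 lower at P80, and 3 higher and 4 lower at P20. Of 13612 genes, 4212 were called in either direction at P80 and 4013 at P20, so the shares of members called were not above those over all genes. Those lower at P20 included Isg15 (-1.75, adjusted p = 0.0312) and Oas1a (-0.87, adjusted p = 0.0477), both of which passed the filter only through the late libraries named above. Macrophage markers summed to 23.8 to 39.0 RPKM in the lines, with 2 or 3 of 19 at 1 RPKM or more and Emr1 and Cx3cr1 listed at 0 in all 8.

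Between the passages no member was called. For P80 against P20 lines, limma called 0 of 25 members and 0 of 13612 genes (0% higher and 0% lower), and 0 members had an unadjusted p under 0.05. The median log2 fold change was 0.04 over the members and -0.01 over all genes. P20 and P80 libraries come from the same lines, but this fit held no term for the line, and lines and primary NPCs shared 1 age term. Its spread also took in the primary libraries, so the test could miss changes between passages. The largest change among the members was in Trim25, at -0.57 ± 0.34 (SE, adjusted p = 0.8), where the E13.5 line had 2.54 RPKM at P80 and 11.0 RPKM at P20 and the other 3 lines differed little.

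Upstream of the members, the lines differed from primary NPCs in sensors and receptors. Tmem173, or STING, the adaptor that starts the response to cytoplasmic DNA, had 155 to 232 RPKM in the lines, against 8.66 to 13.54 RPKM in primary NPCs, a gap of log2 4.04 ± 0.11 at P80 (SE, adjusted p = 7.11e-10) and 3.96 ± 0.11 at P20 (adjusted p = 9.28e-10). Stat3, which carries the signal of LIF, had 60.9 to 71.5 RPKM in the lines, against 3.87 to 12.6 RPKM in primary NPCs. Ifnar2 was called higher at P80 (1.17 ± 0.22, adjusted p = 0.00114) and at P20 (1.15 ± 0.22, adjusted p = 0.00139), and Ifnar1 lower at P20 (-0.31 ± 0.08, adjusted p = 0.00957) but not at P80 (-0.18 ± 0.08, adjusted p = 0.0895). Of 8 tested sensing adaptors and kinases, 4 were called higher and 1 lower at both passages. Of 7 targets typical of interferon gamma, 3 were called higher and 0 lower at both, among them Irgm1 at 1.99 ± 0.36 (adjusted p = 0.00097) at P80. Of 30 further interferon-stimulated genes, 4 were called higher and 4 lower at both.

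The difference between late and early ages was next compared between lines and primary NPCs. Among the lines, averaged over their passages so that the line is the unit, 0 of 25 members were called between late origin (E16.5 and P1) and early origin (E11.5 and E13.5), 1 had an unadjusted p under 0.05, and 0.0294% of all genes were called higher and 0.0147% lower. That member was Stat2, lower in lines of late origin (-0.60 ± 0.19 on the log2 scale, adjusted p = 0.358). Among primary NPCs, 16 of 25 members were called higher and 0 lower in late against early ages, where 15.2% of genes were called higher and 9.52% lower, with medians of 1.17 over the members and 0.04 over all genes. Among the 7 members that entered this fit only through the P1 libraries or E16.5 library #1, 4 were called (Isg15, Rsad2, Xaf1 and Ddx58), in part through the filter, and 12 of the other 18 were called. The medians over the members, here and for the difference below, include these 7 and were in part set by the filter. The count of 16 became 5 or 6 without any 1 of the early libraries, 7 without P1 library #2 and 8 without the E11.5 or the E13.5 line. The difference of the 2 contrasts was called for 0 members by limma, and 6 had an unadjusted p under 0.05, where 0.132% of genes were called higher and 0.58% lower. Its median was -1.10 over the members and -0.01 over all genes, and 1 of the 25 had a positive value. For Ifitm3 the late against early contrast was 0.33 ± 0.92 in lines and 4.11 ± 0.65 in primary NPCs, a difference of -3.78 ± 1.13 (SE, adjusted p = 0.136). Without E16.5 library #2 the difference was called lower for 7 members, and the share over all genes in that setting is not given here. With E16.5 library #1 and P1 library #1 left out, 4 members were called in primary NPCs (Ifit2, Ifi35, Rsad2 and Ifitm3), where 9.57% of genes were called higher, and 0 in the lines or in the difference. The filter was not applied anew in that setting, and Rsad2 had passed it only through those 2 libraries. In the libraries that remained in this fit Rsad2 had at most 0.855 RPKM. The 2 libraries of the P1 line were less like each other (r = 0.921) than like the closest library of another line (r = 0.958 at P20 and 0.969 at P80). Whether their labels are right was not settled. The E13.5 line did the same by a smaller margin (r = 0.944, against 0.956 at P20 and 0.966 at P80). The E16.5 line at P20 (r = 0.958, against 0.956 to its own P80 library) was also closest to the P1 line. So was the E11.5 line at P80 (r = 0.969, against 0.960 to its own P20 library). A closer match to another line was thus not particular to the P1 line. Without the P1 line only 1 line of late origin remains, so no count is given for the lines or the difference. In primary NPCs 11 members were called in that setting, and the share over all genes there is not given here.

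The withdrawal cultures had no replicates and no test was run. Each value is the difference of log2(RPKM + 1) from the mean of heparin and Y27632 withdrawal on the same day, and a gene counts as past the fold where it differs by at least 1 on each day. Of the 33 members 21 passed the filter here, of 12189 genes. Oasl2, Ifit3, Rtp4 and Ddx58 passed only through the libraries without BMP7 or the day 8 library without CHIR, where they were high. The medians over the 21 members were thus in part set by the filter. BMP7 is a growth factor that maintains NPCs, and after its withdrawal 3 members were past the fold upward and 0 downward, where 4.88% of genes were upward and 3.76% downward. Medians over these members were 0.37 on day 4 and 0.36 on day 8, against -0.01 and -0.04 over all genes. Ifitm3 had 1608 and 1257 RPKM on days 4 and 8 without BMP7, against 440 and 416 RPKM without heparin and 469 and 395 RPKM without Y27632. Ifitm3 also had 663 and 1260 RPKM on days 4 and 8 without CHIR. Zbp1 had 8.08 and 6.22 RPKM without BMP7, against 0.990 and 1.64 RPKM without heparin and 1.93 and 1.44 RPKM without Y27632. Isg15 had 4.95 and 4.23 RPKM without BMP7, against 1.23 and 1.59 RPKM without heparin and 1.13 and 1.18 RPKM without Y27632. In each of the 3 genes both days without BMP7 lay above all 4 libraries they were set against.

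Without BMP7, of 9 targets typical of interferon gamma, 5 were past the fold upward (Gbp2, Irgm1, Iigp1, Ifi47 and Cxcl10), and of 22 further interferon-stimulated genes 6 were, among them Lgals9. Mx1 was listed at 0 in all 9 libraries and Trim25 went the other way, with -0.84 and -0.39. Tubule markers summed to 1645 and 1267 RPKM without BMP7, against 369 to 424 RPKM in the 4 reference libraries, but 4 and 3 of the 18 tubule markers reached 1 RPKM and 10 and 9 were listed at 0. Of the 4 tubule genes that passed the filter, S100g and Spp1 were past the fold upward and Atp1b1 downward (-3.19 and -3.08). Stroma markers summed to 576 and 656 RPKM without BMP7, against 242 to 315 RPKM, and progenitor markers to 581 and 501 RPKM, against 770 to 841 RPKM. Of 15 stroma markers that passed the filter, 5 were past the fold upward, Col3a1 most (5.39 and 5.80), and 2 downward (Col1a1 and Rgs5). Of 15 progenitor markers 5 were past it downward and 1, Meox1, upward (4.08 and 3.70). The part of these markers in the members' levels was not tested.

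**Figure D4:**
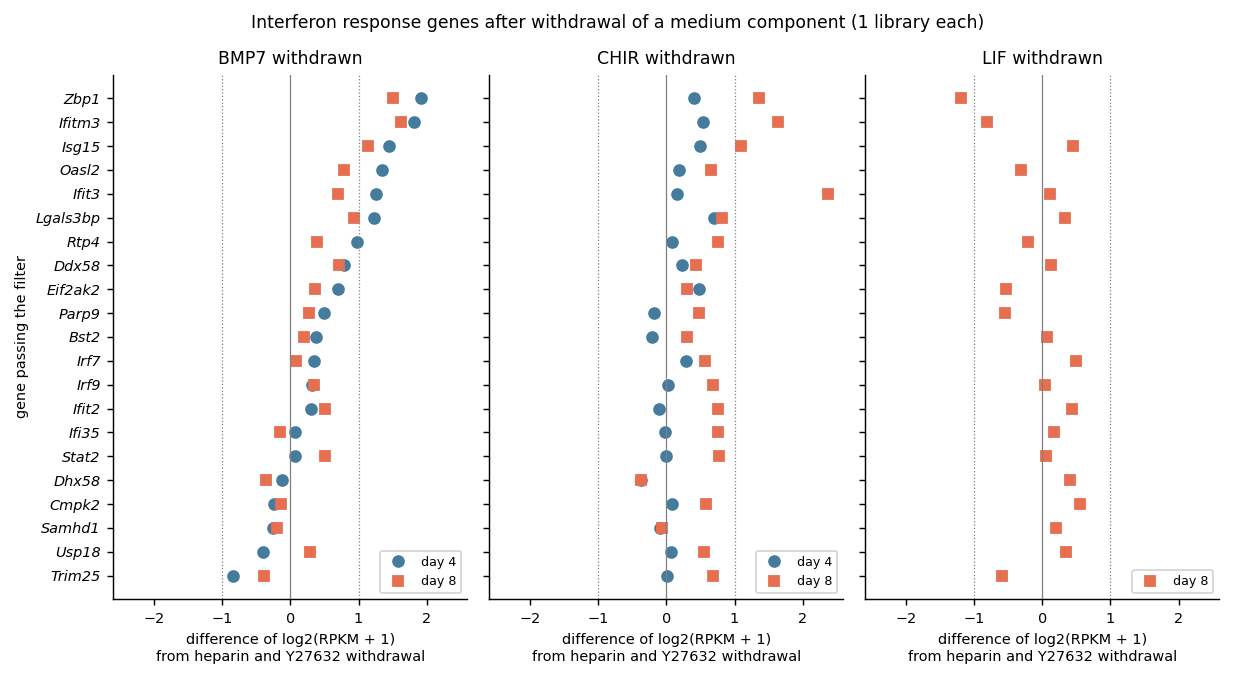
Difference of log2(RPKM + 1) of the 21 interferon response genes that passed the filter, after withdrawal of BMP7, CHIR or LIF, from the mean of heparin and Y27632 withdrawal on the same day (circles day 4, squares day 8, 1 library each, dotted lines at -1 and 1). Zbp1, Ifitm3 and Isg15 lie beyond 1 on both days without BMP7, 4 genes lie beyond 1 on day 8 without CHIR, and Zbp1 alone lies beyond -1 without LIF.

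Without CHIR the larger differences were seen on day 8. None was past the fold on both days in either direction, where 1.76% of genes were upward and 0.984% downward. On day 4 the median was 0.08 and 0 members reached a difference of 1. On day 8 the median was 0.68, against -0.04 over all genes, and 4 members reached 1: Ifit3 at 2.37, Ifitm3 at 1.63, Zbp1 at 1.37 and Isg15 at 1.09. Ifit3 passed the filter only through this day 8 library and the day 4 library without BMP7. Its place here, and the median, were thus in part set by the filter. Ifit3 had 5.25 RPKM on day 8 and 0.183 RPKM on day 4 without CHIR, and at most 0.218 RPKM in the 4 reference libraries. Tubule markers summed to 512 RPKM on day 4 and 2205 RPKM on day 8 without CHIR, where 2 and 3 of 18 reached 1 RPKM, and stroma markers to 587 and 662 RPKM. Their part was not tested.

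Without LIF, sampled on day 8 alone, 0 members were past the fold upward and 1 downward, where 5.22% of genes were upward and 4.02% downward. The member was Zbp1, with 0.107 RPKM without LIF, against 1.64 RPKM without heparin and 1.44 RPKM without Y27632 on that day. Ifitm3 had 230 RPKM without LIF, against 416 RPKM without heparin and 395 RPKM without Y27632, and its difference of -0.82 was short of the fold. Other pathway genes lay past the fold in both directions without LIF. Stat3 (-1.32), its target Socs3 (-1.88), Irgm1 (-1.32) and Tmem173 (-1.77) were lower, and Ifngr2 (1.61), Irf5 (2.57), Ifi27 (2.06) and Tdrd7 (1.21) were higher.

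Members differed in how closely they followed one another. Over the 20 poly(A) libraries, Pearson's r of a member with the mean log2(RPKM + 1) of all 33 was highest for Irf7, Parp9 and Oasl2 (0.94 each) and lowest for Samhd1 (0.03), Herc6 (0.20), Cmpk2 (0.24) and Stat2 (0.27). Of 10822 other genes, those most like the members' mean were Parp12 (r = 0.964), Itm2b (0.963), Hfe (0.953), Manba (0.940) and H2-T23 (0.936), followed by Rnase4, Enpp5, Aplp2 and Rassf6 (0.918). Parp12 had 11.6 and 6.52 RPKM at P1, against 1.47 and 1.19 RPKM at E11.5. These correlations rest in large part on the few libraries where the members were high, and the libraries share age, marker content and table set, so they are descriptions.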

How the data were processed

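RNA was measured in 29 mouse kidney libraries, and gene levels were used as the authors deposited them, as RPKM values in a single table of 23947 lines. Reads of the 20 poly(A) libraries were processed with STAR and Cufflinks on mm9, per the submitters' processing notes. Aligner and build of the 9 total RNA libraries, tool versions and strand of counting are unknown from the sources used here. Left out were 27 lines whose symbol had turned into a date and the last 2 lines, and 0 sample columns went unused. Depth was estimated from the steps of low values at 6.6 to 32.9 M reads. Of low values, 55.2% to 65.7% lay within 10% of a whole read, so counts were not recovered.

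Groups follow the labels. limma 3.58.1 in R 4.3.3 was run on log2(RPKM + 1) with a variance trend, two-sided tests and Benjamini-Hochberg adjustment over all genes with at least 1 RPKM in at least 2 libraries, and every adjusted p is from it. A fold change on this scale understates that of low genes. Calls are at an adjusted p under 0.05. One fit covered the 12 sorted libraries, another the 8 lines and 8 primary libraries of the same ages with age of origin as a term, and the last the 4 line averages and those primary libraries. Python 3.11.15, pandas 2.3.3, numpy 2.4.6 and matplotlib 3.10.9 did the rest, and the scripts were tested on simulated data. Named genes are the members, with other pathway genes from fixed lists and the 10 genes most like the members' mean (median of at least 5 RPKM). Some genes that these rules take in are not reported here. The members and lists were chosen with earlier results of these data known. Alternatives were another pseudocount, no filter, 2 other scalings, no variance trend, the table set as a term, a replicate block, leaving out each library and, added after the data were seen, leaving out both late primary libraries numbered 1. No pair of libraries held identical values, with a highest r of 0.985.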

Additional observations from a re-analysis of the deposited data

Results flagged for a closer look

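Stat2 in the E16.5 line at P80 had 4.73 RPKM, while the other 3 lines at P80 had 9.10 to 9.45 RPKM, and it was the only member with a library this far from the rest of its group in 33 group tests, of which chance flags about 1 in 20. The same line had 5.44 RPKM at P20, and the P1 line at P20 had 4.74 RPKM. The cause was not tested.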

How the results depend on the processing

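No called result changed direction. Among 4956 values of single members, 159 changed sign, none of them called with or without the setting, and 15 of these came with the table set as a term, where Irf7 turned to -0.34 at P20 and 0.27 at P80 (Irf7 main values 0.08 and -0.15). For P1 against E11.5 the count of 18 called members became 10 with both late libraries numbered 1 left out (chosen after seeing the data) and ran from 7 (without E11.5 #1) to 19 when 1 library was left out, with 10 without P1 #1. For P1 against E16.5 the count of 4 became 2 and ran from 0 to 11. For E16.5 against E11.5 the count of 0 ran from 0 to 7. For Six2-negative against E12.5 cells the count of 1 became 2 with quantile scaling or no variance trend, 3 with the table set as a term and 7 without the late libraries, and ran from 0 to 3. At P80 against primary NPCs the count of 5 became 3 with the table set as a term and ran from 3 to 6, with 3 without the P80 library of the E11.5 or of the E16.5 line. At P20 the count of 6 ran from 4 to 9. In late against early primary NPCs the count of 16 became 9 with no filter, 7 with quantile scaling and 4 without the late libraries, and ran from 5 to 21. Quantile scaling moved the median of all genes there to -0.10, against 0.04. In the difference between lines and primary NPCs the count of 0 ran from 0 to 7, with 7 without E16.5 #2. With a pseudocount of 0.1, 6 members passed the fold without BMP7, where 3 had, and 2 without LIF, where 1 had. The shares over all genes with that pseudocount are not given here. In the fit of sorted libraries, a setting that leaves out a library of an age in the comparison leaves 1 of that age, so such counts rest on it. The causes were not tested.

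With a replicate block the counts were 20 for P1 against E11.5, 3 for P1 against E16.5, 0 for E16.5 against E11.5 and 3 for Six2-negative against E12.5 cells. Deviations of same-numbered libraries correlated at -0.0772, 0.374, 0.109 and -0.0663 in these comparisons, so the numbers were not taken to pair the libraries, although they coincide with the table set in every sorted group except E12.5. Depth limits members under 1 RPKM, which rest on a few reads. Each withdrawal is 1 library.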

Other observations

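Over 12129 genes, the P1 line at P20 was closest to the E16.5 line at P20 (r = 0.958), with r = 0.921 to its own P80 library, which was closest to the E11.5 line at P80 (r = 0.969). Both libraries of the E13.5 line were also closest to the E11.5 line at P80 (r = 0.956 at P20 and 0.966 at P80), with r = 0.944 between them. The E16.5 line at P20 and the E11.5 line at P80 were each closest to a library of the P1 line (r = 0.958 and 0.969). Their values to their own other passage were 0.956 and 0.960. Whether the libraries of the P1 line carry the right labels was not settled here. The E16.5 line at both passages and the P1 line at P20 also had Stat2 at 4.73 to 5.44 RPKM and Irf7 at 2.62 to 2.79 RPKM, against 9.10 to 9.77 RPKM and 0.581 to 1.24 RPKM in the other 5 line libraries. Zbp1 was listed at 0 in those 3 libraries and had 0.0441 to 1.09 RPKM in the other 5.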
